A study of Arabidopsis thaliana with 8 samples.

Results

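SAG29 (AT5G13170, also called SWEET15) encodes a membrane protein of the SWEET family, which lets sugars cross membranes without an energy source. Its probe set was found by gene symbol and was the single probe set of that symbol among the 22810 on the array. SWEET proteins export sugar from cells that make or store it, for example towards the phloem, the developing seed or nectar, and some sit in the membrane of the vacuole instead. SAG29 was named as a senescence-associated gene. Its transcript is known to accumulate in ageing leaves and seeds and under osmotic stress, and its protein carries sucrose across the plasma membrane. For reference, the other loci of the family were followed through 15 further probe sets, which leaves SWEET12 of the 17 SWEET loci without a probe set of its own name here.

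The series measured transcripts on Affymetrix arrays in green tissue of Arabidopsis thaliana plants grown for 4 weeks. abh1 plants, which carry a mutation in the larger protein of the complex that binds the cap of new messenger RNAs in the nucleus, and Columbia (Col-0) wild-type plants were sprayed with 50 µM abscisic acid (ABA), a stress hormone, or with water as the mock treatment, and were collected after 4 h. The 4 groups are abh1 ABA, abh1 mock, wild-type ABA and wild-type mock, with 2 arrays each numbered 1 and 2 in the labels, and every array received RNA pooled from 3 biological replicates. The labels do not name the abh1 allele, and the probe set of ABH1 itself is not analysed here.

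Values are MAS5 signal, the linear brightness that the Affymetrix software gives a probe set. The 10th percentile of signal on an array, taken here as the level near which a probe set is hardly measured, lay between 6.80 and 7.94 for replicate 1 of the 4 groups and between 11.5 and 12.7 for replicate 2. The wild-type ABA arrays stood apart from each other: their log2 signals correlated at 0.859 across the 13652 probe sets kept, against 0.919 to 0.952 between the arrays of each other group. Wild-type ABA replicate 2 correlated best with wild-type mock replicate 2 (0.957). Most arrays likewise correlated best with a same-numbered array of another group, such as abh1 mock replicate 2 with wild-type mock replicate 2 (0.954). The exception was abh1 ABA replicate 2, closest to the other array of its group (0.952). RCA, the Rubisco activase of green leaf cells, had a signal of 13882 to 20232 on every array. It was the single leaf marker of 7 with a probe set of its name. PYK10, a root beta-glucosidase, lay between 19.4 and 82.5, and none of the 6 seed markers had a probe set of its name, so seed transcripts were not followed.

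SAG29 was selected on its signal in wild-type ABA and wild-type mock arrays, and the values of all 4 groups were known when it was chosen. Its wild-type values are therefore a description with no test. Its abh1 values were not held back from that choice, so a test of them is not an independent one. In abh1 plants its signal was 1250.5 and 1042.1 on the ABA arrays, against 100.02 and 102.69 on the mock arrays. In wild-type plants it was 2472.4 and 541.7 on the ABA arrays, against 4.69 and 53.4 on the mock arrays. All 4 ABA arrays thus lay above all 4 mock arrays, as they did for 530 probe sets, or 3.88% of those kept. The abh1 arrays of a group were close together, whereas the wild-type arrays of a group were far apart.

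By group mean, SAG29 was ordered as wild-type ABA (1507 ± 1365, SD, n = 2), abh1 ABA (1146 ± 147), abh1 mock (101.4 ± 1.88) and wild-type mock (29.1 ± 34.5). The first neighbours in this order overlapped array by array. Between abh1 ABA and abh1 mock the gap was far wider than the spread of either group. abh1 mock and wild-type mock did not overlap, but their fitted log2 difference of 1.90 was smaller than the log2 gap of 2.16 between the wild-type mock arrays. Signal from leaf tissue cannot tell fewer expressing cells from less RNA per cell.

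**Figure D1:**
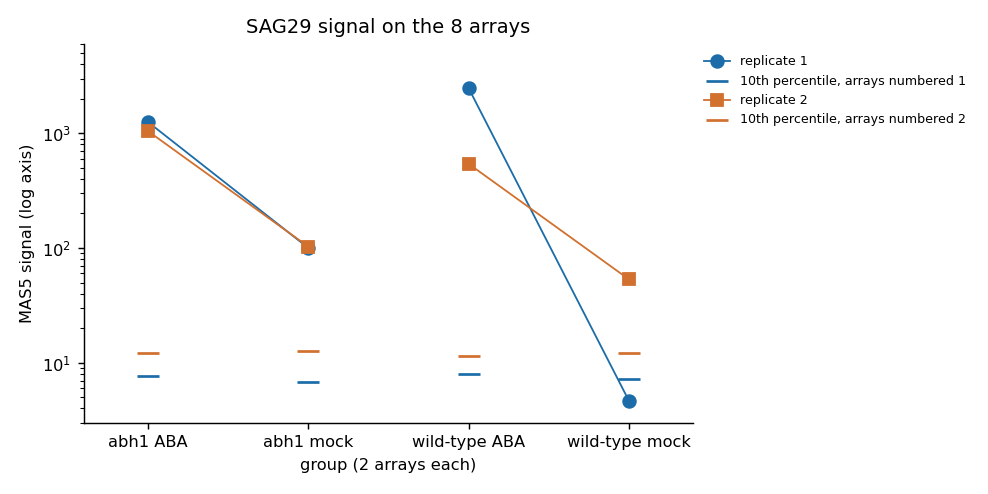
MAS5 signal of SAG29 (log axis) on the 8 arrays, by group, with circles for replicate 1, squares for replicate 2, lines joining the ABA and mock arrays of the same number and genotype, and short bars at each array's 10th percentile. ABA arrays lie between 541.7 and 2472.4, above all mock arrays, and wild-type mock replicate 1, at 4.69, is the one point under its array's 10th percentile (7.156).

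In abh1 plants SAG29 was 12.5 times as bright on the ABA array as on the mock array within replicate 1, and 10.2 times within replicate 2. After an offset of 9.38 was added to every signal to damp noise near the floor, the log2 difference was 3.53 and 3.23 within replicates 1 and 2. Their mean was 3.38 ± 0.82 (SE), the 12th highest of the 13652 probe sets. Of the probe sets kept, 15.8% had both abh1 ABA arrays above both abh1 mock arrays and 21.9% had both below. In wild type the shares were 10.4% above and 13.3% below.

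By limma's linear model of all 8 arrays this difference did not pass the threshold of 0.05 (adjusted p = 0.595, and 0.189 when the model also held a term for the replicate number, called the replicate block). In the model all groups share a spread, and for SAG29 most of that spread came from wild-type arrays: the arrays of a group differed by 0.26 log2 units in abh1 ABA and 0.03 in abh1 mock, but by 2.17 in wild-type ABA and 2.16 in wild-type mock. These p-values are not independent of the choice of SAG29, which was made with the values of all 4 groups known, and the probe set was kept, at a mean signal of at least 115.4 over the 8 arrays, through its ABA arrays. A fit on the 4 abh1 arrays alone, chosen after their small spread had been seen and so no independent support, gave an adjusted p of 0.0131 and called 0.19% of all probe sets. On all 8 arrays limma called 0% of all probe sets in this comparison and the fit with the block called 0.125%.

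In wild-type plants the fitted log2 difference between ABA and mock was 5.30 ± 0.82 (SE), and it was 6.04 with an offset of 1 and 4.42 with an offset of 32. The 2 replicate numbers gave unlike sizes, 7.46 within replicate 1 and 3.13 within replicate 2. The value within replicate 1 rests on the mock signal of 4.69, so no linear ratio is given for it, and it was 8.77 with an offset of 1 and 6.09 with an offset of 32. Within replicate 2 the linear ratio was 10.1, close to the ratios of abh1. Without wild-type ABA replicate 2 the fitted difference was 6.38, and without wild-type mock replicate 1 it was 4.22. A larger wild-type difference within replicate 1 was not particular to SAG29. It held for 80.8% of the 530 probe sets with all ABA arrays above all mock arrays. The median wild-type difference of those probe sets was 0.93 within replicate 1 and 0.523 within replicate 2.

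SAG29 was also compared between the genotypes, as a description, since the wild-type arrays are those on which it was picked. In mock-treated leaves it was higher in abh1 by 2.96 log2 units within replicate 1 and 0.84 within replicate 2, with both abh1 arrays above both wild-type arrays, as for 13.7% of probe sets, where 14.3% had both below. The value within replicate 1 rests on the wild-type mock signal of 4.69, and it was 4.15 with an offset of 1 and 1.85 with an offset of 32. In ABA-treated leaves the replicate numbers went opposite ways, at -0.98 within replicate 1 and 0.93 within replicate 2, and the fitted difference was -0.02 ± 0.82; over all probe sets, 10.7% had both abh1 arrays above both wild-type arrays in ABA and 6.89% both below. Leaving out replicate 1 of wild-type ABA moved it to 1.06, and leaving out replicate 2 to -1.11. The ABA difference in abh1 minus that in wild type was -3.94 log2 units within replicate 1 and 0.097 within replicate 2. The first of these rests on the same mock signal of 4.69, and it was -5.13 with an offset of 1 and -2.81 with an offset of 32. It rests as well on the signal of 2472.4 on wild-type ABA replicate 1, against 541.7 on replicate 2.

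Among the other SWEET genes, 7 of 15 probe sets passed the signal filter, a mean of at least 115.4 over the 8 arrays. The 8 others, for SWEET3, AtVEX1 (the array's name for the SWEET5 locus), SWEET6, SWEET7, SWEET8, SWEET9, SWEET10 and SWEET14, had signals between 5.69 and 181.6 and were not tested. SWEET8 and the SWEET5 locus are known from pollen and SWEET9 from nectaries. SAG29 itself passed the filter through its ABA arrays, since its mock signals were all under 115.4. None of the 7 passed limma's test in any of the 4 comparisons, with or without the block. Without the block limma called 0% of all probe sets in each comparison, so this count is no result about the 7. With the block it called 0.125% of all probe sets for ABA in abh1 and 0.00732% for ABA in wild type. For abh1 against wild type it called 0.117% in mock and 0.00732% in ABA. At an unadjusted p under 0.05 there was 1 of 7, SWEET4, for ABA in abh1 and 1, SWEET4 again, for ABA in wild type, and 0 in either comparison of genotypes. Over all probe sets the shares at that level were 4.22% for ABA in abh1, 4.2% for ABA in wild type, 2.92% for abh1 against wild type in mock and 1.66% in ABA.

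SWEET4, a sugar transporter of the plasma membrane, had the largest ABA difference of these 7 in both genotypes. Its signal was 1077.8 and 636.5 on the abh1 ABA arrays, against 345.7 and 266.7 on the abh1 mock arrays. In wild type it was 1653.8 and 407.4 with ABA, against 286.0 and 292.4 with mock. Its ABA arrays lay above its mock arrays within each genotype. Over all probe sets this held for 15.8% in abh1 and 10.4% in wild type. SWEET4 was brightest on wild-type ABA replicate 1, as SAG29 was. Its log2 difference was 1.42 ± 0.60 (SE) in abh1 (limma adjusted p = 0.992, and 0.286 with the block) and 1.48 ± 0.60 in wild type (0.999, and 0.259 with the block). Within replicates 1 and 2 the wild-type difference was 2.49 and 0.47. Leaving out replicate 2 of wild-type ABA gave 2.48 with an adjusted p of 0.043, and leaving out replicate 1 gave 0.48. Without replicate 2 the wild-type ABA group is a single array assumed to vary like the other groups, and that fit called 0.989% of all probe sets.

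SWEET11 and SWEET13 belong, like SAG29, to the sucrose-carrying branch of the family. SWEET11, which loads sucrose towards the phloem, had signals of 9144.8 and 6385.2 on the abh1 ABA arrays, against 9787.7 and 7994.6 on the abh1 mock arrays. In wild type they were 7610.9 and 4025.1 with ABA, against 7766.8 and 5176.9 with mock. The ABA and mock arrays overlapped in both genotypes, and the log2 differences were -0.21 ± 0.36 in abh1 and -0.20 ± 0.36 in wild type. SWEET13 had 589.1 and 549.9 on the abh1 ABA arrays, against 561.2 and 594.7 on the abh1 mock arrays, a log2 difference of -0.02 ± 0.24. Its wild-type signals were 638.1 and 682.0 with ABA, against 508.4 and 538.4 with mock, which did not overlap and differed by 0.33 ± 0.24. Both wild-type ABA arrays lay above both mock arrays for 10.4% of all probe sets.

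SWEET16 and SWEET17 are transporters of the vacuolar membrane that carry fructose and other sugars. SWEET17 had 3046.6 and 4072.7 on the abh1 ABA arrays, against 2012.5 and 2402.2 on the abh1 mock arrays, a log2 difference of 0.68 ± 0.33 (limma adjusted p = 0.992). Its wild-type ABA and mock arrays overlapped, with a log2 difference of 0.30 ± 0.33. SWEET16 differed by -1.21 and 0.68 within replicates 1 and 2 in abh1, so that its mean of -0.27 ± 0.56 joins values of opposite sign, and by -0.08 ± 0.56 in wild type. SWEET1, a glucose transporter, was at 0.06 ± 0.49 in abh1 and 0.38 ± 0.49 in wild type, and SWEET2, another vacuolar transporter, at 0.21 ± 0.62 and -0.37 ± 0.62. The median of the 7 was 0.06 in abh1, where that of all probe sets was -0.05, and 0.30 in wild type, where that of all probe sets was -0.09.

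**Figure D2:**
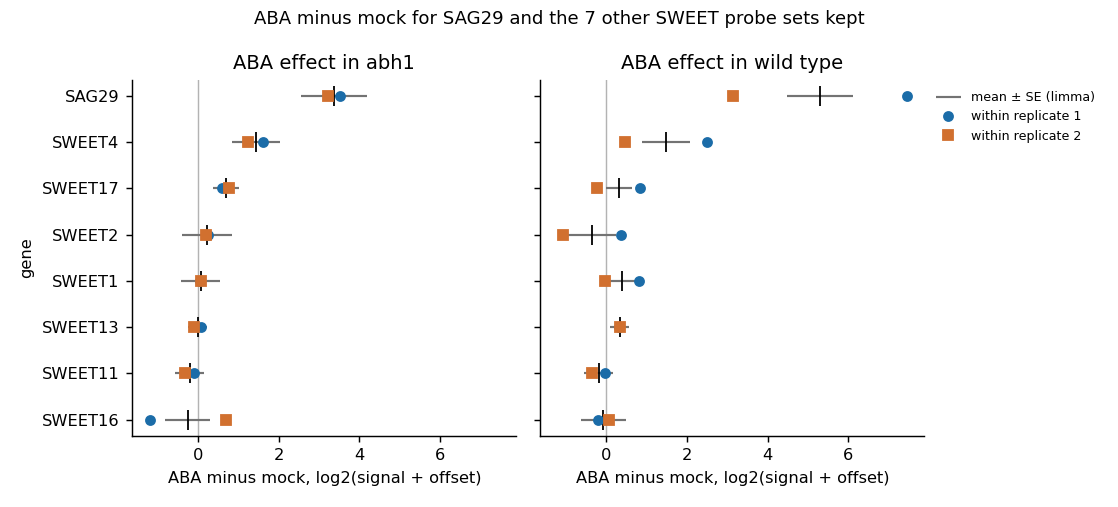
ABA minus mock difference in log2(signal + offset) for SAG29 and the 7 other SWEET probe sets kept, in abh1 (left) and wild type (right), with circles and squares for replicates 1 and 2, a tick for the mean and a line for ± 1 SE of the limma fit. SAG29 is at 3.38 in abh1 and 5.30 in wild type, SWEET4 at 1.42 and 1.48, and the other 6 lie between -0.37 and 0.68.

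Between genotypes, SWEET1 had 2080.3 and 1272.3 on the abh1 mock arrays, against 1190.7 and 856.5 on the wild-type mock arrays. The log2 difference was 0.68 ± 0.49 (limma adjusted p = 1), with 0.80 and 0.57 within replicates 1 and 2. With the block the SE was 0.24 (limma adjusted p = 0.463). In abh1 mock against wild-type mock, SWEET2 was at -0.49 ± 0.62, SWEET11 at 0.48 ± 0.36 and SWEET13 at 0.14 ± 0.24, each without overlap of the arrays. With the block these SEs were 0.43 for SWEET2, 0.19 for SWEET11 and 0.20 for SWEET13. Over all probe sets, 13.7% had both abh1 mock arrays above both wild-type mock arrays and 14.3% had both below. In ABA the difference of SWEET11 was 0.46 ± 0.36, with overlapping arrays. SWEET13 was the 1 of 7 whose arrays did not overlap in ABA, at -0.21 ± 0.24, where 6.89% of all probe sets had both abh1 arrays below both wild-type arrays and 10.7% both above. SWEETIE, which shares the first letters of the name and is not a SWEET transporter locus, had 138.8 and 103.9 on the abh1 ABA arrays, against 182.3 and 235.5 on the abh1 mock arrays, a log2 difference of -0.74 ± 0.77. In wild type its signals were 35.9 and 263.8 with ABA, against 154.9 and 269.2 with mock (log2 -0.94 ± 0.77), and the groups overlapped.

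The other genes linked to leaf senescence were represented by 4 probe sets of 30 entries, all kept. None passed limma's test for ABA, with or without the block. Over all probe sets that test called 0% without the block, and with it 0.125% in abh1 and 0.00732% in wild type. AT2G25625, the CHLOROPLAST VESICULATION gene whose protein takes part in the breakdown of chloroplasts under stress and in ageing leaves, had 1219.0 and 845.0 on the abh1 ABA arrays, against 327.2 and 412.3 on the abh1 mock arrays. Its wild-type signals were 2994.4 and 764.8 with ABA, against 285.6 and 265.1 with mock. As for SAG29, no array of the ABA groups overlapped mock, and wild-type ABA replicate 1 was the brightest. Every ABA array lay above every mock array for 3.88% of all probe sets. AT2G25625 differed by 1.44 ± 0.57 in abh1 (adjusted p = 0.992, and 0.319 with the block) and by 2.42 ± 0.57 in wild type (0.621, and 0.115 with the block).

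WRKY53, a transcription factor that promotes leaf senescence, was at 0.78 ± 0.41 in abh1 and 0.64 ± 0.41 in wild type. WRKY6, a transcription factor of senescence and defence, was at -0.49 ± 0.40 in abh1 and 0.71 ± 0.40 in wild type. SAG101, a lipase-like protein of senescence and immunity, had 126.2 and 137.4 on the abh1 ABA arrays, against 252.5 and 193.5 on the abh1 mock arrays (log2 -0.71 ± 0.43), and was at 0.04 ± 0.43 in wild type. The list's median ABA difference was 0.14 in abh1 and 0.67 in wild type. With 26 of 30 entries not followed, these values say nothing of most senescence genes.

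Among 39 entries for other sugar transporters, 30 could not be matched to a probe set of 1 gene and were not followed. A further 2 were under the signal filter and 7 were kept. None of the 7 passed limma's test for ABA, with or without the block. That test called 0% of all probe sets without the block, and with it 0.125% in abh1 and 0.00732% in wild type. The vacuolar monosaccharide transporter TMT1 had 530.5 and 703.0 on the abh1 ABA arrays, against 830.2 and 1293.1 on the abh1 mock arrays (log2 -0.75 ± 0.47). It was at -0.56 ± 0.47 in wild type, where the arrays overlapped. SFP1, of the ERD6-like sugar transporters, had 2183.5 and 2698.2 on the abh1 ABA arrays, against 1383.9 and 1654.7 on the abh1 mock arrays (log2 0.68 ± 0.35). In wild type SFP1 was at 0.23 ± 0.35, with overlapping arrays. TMT3, another vacuolar monosaccharide transporter, was at -0.09 ± 0.94 in abh1, with -0.49 and 0.30 within replicates 1 and 2. In wild type TMT3 was at 1.31 ± 0.94, with 2.23 and 0.38, and its ABA and mock arrays overlapped in both genotypes. TMT2, SFP2, AT5G61520 (STP3) and AT1G34580 (STP5) lay between -0.20 and 0.31 in abh1 and between -0.06 and 0.13 in wild type.

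For sucrose synthesis and cleavage, 16 of 20 entries could not be matched to a probe set of 1 gene and were not followed. The other 4 were kept, and none passed limma's test for ABA, with or without the block. That test called 0% of all probe sets without the block, and with it 0.125% in abh1 and 0.00732% in wild type. ATSPS4F, a sucrose phosphate synthase, had 210.8 and 134.8 on the abh1 ABA arrays, against 841.0 and 1341.0 on the abh1 mock arrays. In wild type it had 84.9 and 577.5 with ABA, against 607.1 and 849.0 with mock. ABA arrays lay below mock arrays in both genotypes, by -2.59 ± 0.75 in abh1 (adjusted p = 0.799, and 0.193 with the block) and -1.63 ± 0.75 in wild type (0.999, and 0.389 with the block). Over all probe sets, both ABA arrays lay below both mock arrays for 21.9% in abh1 and 13.3% in wild type. AT1G62660, a vacuolar invertase that splits sucrose, was at 0.53 ± 0.33 in abh1 and 0.88 ± 0.33 in wild type, without overlap in either. Both ABA arrays lay above both mock arrays for 15.8% of all probe sets in abh1 and 10.4% in wild type. The sucrose phosphatase AT2G35840 was at 0.06 ± 0.27 and 0.14 ± 0.27, and cwINV6, named as a cell wall invertase, at -0.15 ± 0.45 and -0.62 ± 0.45.

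**Figure D3:**
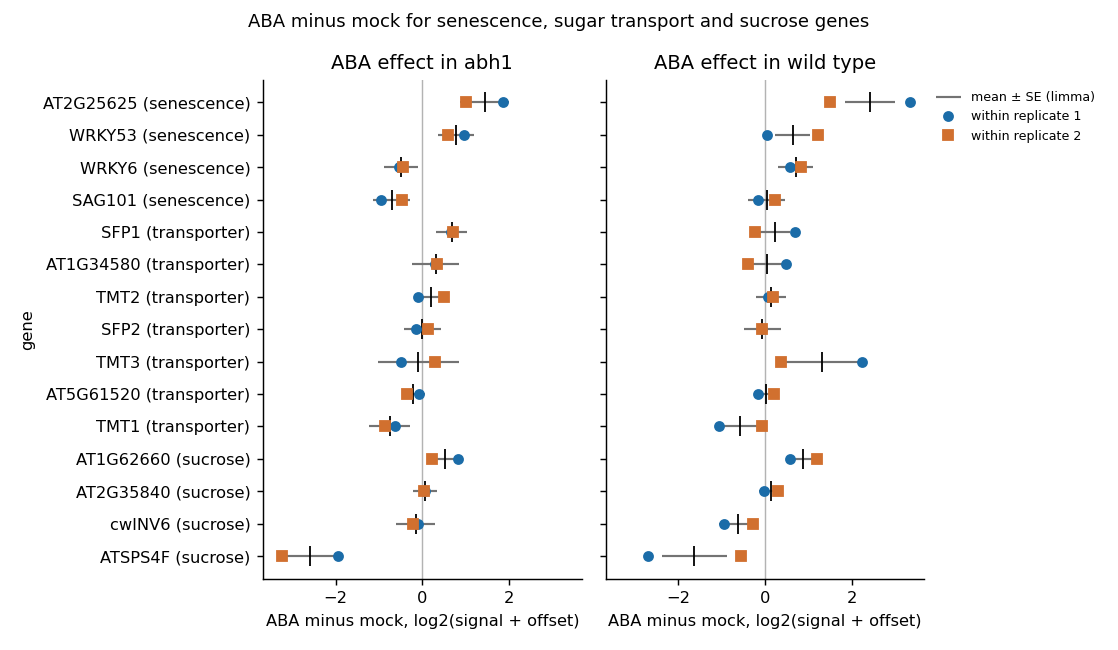
ABA minus mock difference in log2(signal + offset) for the 15 kept probe sets of the senescence, sugar transporter and sucrose enzyme lists, in abh1 (left) and wild type (right), drawn with circles and squares for replicates 1 and 2, a tick for the mean and a line for ± 1 SE of the limma fit. AT2G25625 is the highest in both genotypes (1.44 and 2.42) and ATSPS4F the lowest (-2.59 and -1.63).

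The genes whose pattern was most like that of SAG29 were taken as the 10 of 7407 named probe sets with the highest Pearson correlation of log2(signal + offset) over the 8 arrays. These arrays form 4 groups that share treatment, genotype and replicate number, so the correlations describe the arrays and carry no test. They ran from 0.945 to 0.976, and Spearman's rho from 0.857 to 1. All 10 had every ABA array above every mock array, which is part of the pattern they were chosen for.

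The closest was AT1G67060 (r = 0.976), with a small log2 difference of 0.57 ± 0.26 in abh1 and 0.58 ± 0.26 in wild type. Next came AT4G33150 (r = 0.974), the locus of the lysine-degrading enzyme LKR/SDH, which had 791.8 and 515.1 on the abh1 ABA arrays, against 213.2 and 226.2 on the abh1 mock arrays. Its wild-type signals were 813.5 and 533.2 with ABA, against 136.3 and 221.5 with mock. The log2 difference of AT4G33150 was 1.50 ± 0.37 in abh1 and 1.87 ± 0.37 in wild type. AT2G41190 (r = 0.963), of an amino acid transporter family, was at 3.10 ± 0.59 in abh1 and 3.21 ± 0.59 in wild type, with 4.47 and 1.94 within wild-type replicates 1 and 2. ALDH7B4 (r = 0.951), an aldehyde dehydrogenase that removes toxic aldehydes under stress, was at 1.35 ± 0.31 and 1.78 ± 0.31. These genes were picked for their likeness to SAG29 on the same arrays, so limma's test of their ABA differences is no independent test. None of the differences passed it, with or without the block, in either genotype. Over all probe sets that test called 0% without the block, and with it 0.125% in abh1 and 0.00732% in wild type.

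The other 6 were AT1G62510, ETFALPHA, AT3G16175, AT2G21820, AT2G37870 and AT3G03170. ETFALPHA, the electron transfer flavoprotein subunit that passes electrons from amino acid breakdown to the mitochondrial respiratory chain, differed by 0.33 ± 0.26 in abh1 and 0.54 ± 0.26 in wild type. The 5 others had log2 differences of 0.60 to 2.93 in abh1 and 0.67 to 2.99 in wild type. AT3G03170 had the same rank order over the 8 arrays as SAG29 (rho = 1). Its signal was 277.9 and 235.9 on the abh1 ABA arrays, against 84.3 and 87.6 on the abh1 mock arrays, and 432.0 and 111.0 on the wild-type ABA arrays, against 49.9 and 82.2 on the wild-type mock arrays. Among the SWEET genes kept, SWEET4 had a correlation of 0.865 with SAG29, SWEET17 0.71 and SWEET13 0.665, and the other 4 lay between -0.22 and 0.42. AT2G25625 had 0.913 and ATSPS4F -0.786.

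**Figure D4:**
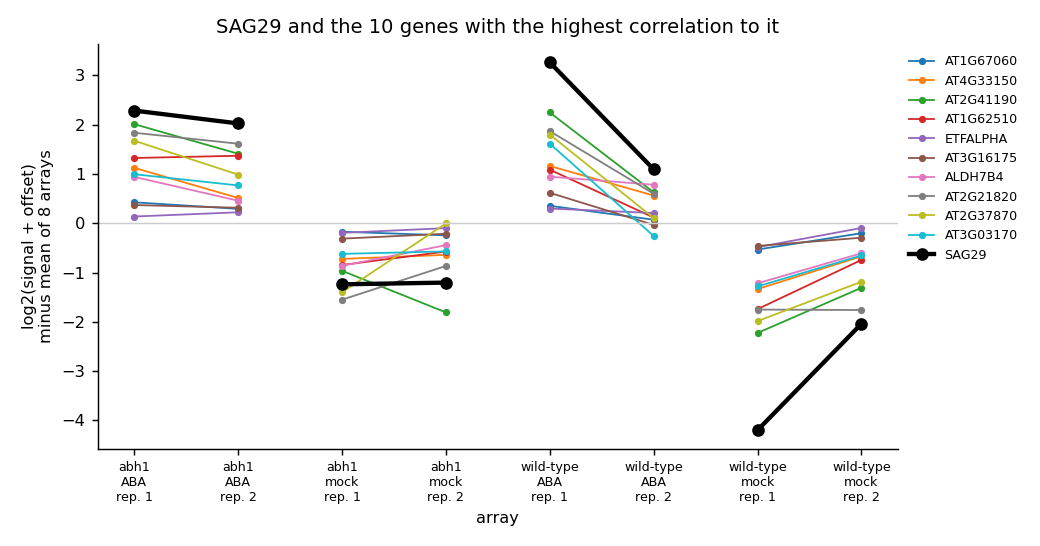
log2(signal + offset) minus the mean of the 8 arrays for SAG29 (thick black) and the 10 most correlated genes, with lines joining the 2 arrays of a group. Every line is higher in the ABA arrays than in the mock arrays of its genotype, SAG29 is the highest line on wild-type ABA replicate 1 and the lowest on wild-type mock replicate 1.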

How the data were processed

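Per the labels, total RNA was hybridised to Affymetrix arrays, and the deposited values are MAS5 signal intensity per probe set, on a linear scale, computed by the authors with the Affymetrix Micro Array Suite; the settings of that step are not stated there. Trimmed means were 500.04 to 500.05 on all 8 arrays, so no further scaling was done. Medians still ran from 130.7 on wild-type ABA replicate 1 to 215.8 on abh1 mock replicate 2. In each group the median was lower for replicate 1 than for replicate 2. The 64 control probe sets were left out. The offset is the 10th percentile of all values and the filter the 40th percentile of probe set means. Limma 3.58.1 in R 4.3.3 was fitted to all 8 arrays with 4 group means and eBayes with an intensity trend, leaving 4 residual degrees of freedom (3 with the replicate block). Tests were two-sided, with Benjamini-Hochberg adjustment over the 13652 probe sets kept. An exact test of 2 arrays against 2 cannot go below p = 0.33. In simulated data the fits gave back the mean size of the differences put in. That check was of sizes only and does not test the p-values. For the fit without the block, the simulated data held no replicate effect.

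The annotation gave 13513 probe sets 1 gene symbol and 503 several, and 8794 were unnamed here. Locus codes came from RefSeq. For a locus with several probe sets the brightest was used. Named genes were SAG29, all SWEET probe sets, the 10 most correlated named probe sets and up to 5 members per list by p in each ABA comparison. The gene, lists and tests were chosen with earlier results of these data known. Replicate numbers are those of the labels, where no pairing is stated. Same-numbered arrays deviated together from their group means, with correlations of 0.394 to 0.714 over the 6 pairs of groups. These lie above the level of 0.1 at which the numbers count as pairs. The fit without the block leaves this pairing out, and every SE given comes from that fit unless the block is named. With the block the SE of SAG29 was 0.81 in place of 0.82, and that of SWEET1 was 0.24 in place of 0.49. Spread between arrays, which may be technical, is all that the p-values measure, and precision is limited by how few arrays there are. The alternatives tried were other offsets, filters, scalings, the block, no intensity trend, and each array left out.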

Additional observations from a re-analysis of the deposited data

Results flagged for a closer look

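Of 42 named genes, 7 had differences that went one way in both replicates of one setting and the opposite way in both replicates of the other. No share over all probe sets stands beside this count, so it is not read as a result about these genes. WRKY6 was lower with ABA in both abh1 replicates (-0.54 and -0.45 log2 units) and higher in both wild-type replicates (0.58 and 0.84). By the same arrays it was lower in abh1 than in wild type with ABA and higher with mock. Its ABA difference in abh1 minus that in wild type was -1.20, with an adjusted p of 1 by limma, with and without the replicate block. SWEET13 was lower in abh1 with ABA (-0.11 and -0.31) and higher in abh1 with mock (0.14 in each replicate), a difference of -0.35. AT4G33150 and ALDH7B4 showed the same signs, with differences of -0.36 and -0.42. SWEET13, AT4G33150 and ALDH7B4 each had an adjusted p of 1 by limma for that difference. SWEET6, SWEET7 and SWEET8 were under the signal filter, so their differences were not tested. SWEET6 was lower in abh1 with ABA (-0.44 and -0.03) and higher in abh1 with mock (0.30 and 0.56), a difference of -0.66. SWEET7 was higher in abh1 with ABA (0.04 and 0.61) and lower with mock (-0.52 and -0.50), a difference of 0.83. SWEET8 was higher in abh1 with ABA (0.33 and 0.50) and lower with mock (-0.26 and -0.29), a difference of 0.69. No group was large enough to look for a single stray array.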

How the results depend on the processing

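Of 17 alternatives for the ABA difference of SAG29 in abh1, 9 leave the abh1 group means as they were and so could not change it. The other 8 gave 3.14 to 3.54. Adjusted p ran from 0.0131 to 1 over the 17. It passed the threshold in 1, the fit on the 4 abh1 arrays alone (3.38, adjusted p = 0.0131), which was chosen after the values were seen and in which wild-type arrays do not enter the spread. That p is not independent of how the gene and the fit were chosen. It did not pass with the replicate block (0.189). Leaving out single arrays gave 3.25 to 3.51 in abh1, 4.21 to 6.38 for ABA in wild type, 0.82 to 2.98 for abh1 in mock and -1.11 to 1.06 for abh1 in ABA. The number of SWEET probe sets called stayed at 0, save 1 (SWEET4) for ABA in wild type without wild-type ABA replicate 2, where the lone array of that group is assumed to vary like the other groups; single arrays left out gave 0 to 1 there and 0 elsewhere.

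Over all probe sets, the count called for ABA in abh1 was 0 (576 at an unadjusted p under 0.05), 17 with the replicate block (1664), 26 (0.19%) on abh1 arrays alone, and 0 to 30 with single arrays left out. For ABA in wild type it was 0 (574), 1 with the block (1599) and 0 to 135 with single arrays left out. For abh1 in mock it was 0 (398), 16 with the block (1167) and 1 with quantile normalization, and for abh1 in ABA it was 0 (226), and 1 with the block (728). Median centring moved the median difference of all probe sets from -0.05 to 0.11 for ABA in abh1 and from -0.09 to 0.02 for ABA in wild type. Under median centring or quantile normalization 9 of 100 listed differences changed sign, all within 0.152 of 0, among them SWEET13 for ABA in abh1 (0.14 and 0.04), SWEET16 for ABA in wild type (0.03 and 0.05) and, with quantile normalization, SAG29 for abh1 in ABA (0.08). Of the 10 genes most like SAG29, 2 were also among the 10 by Spearman correlation, 4 after the replicate means were taken off and 7 with an offset of 32. The cause of these shifts was not tested. SAG29 on wild-type mock replicate 1 lies under that array's 10th percentile, which limits its wild-type values.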
